A study of Triticum aestivum with 72 samples.

Results

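A two-level probe set is a group of array probes for a transcript whose signal falls into separate high and low classes across the lines of a cross. One such probe set of the wheat array, without a gene name in the supplied annotation, is described here with the lines on its high side and those on its low side. The lines were chosen by its own array values and by nothing else. Its 72 array values were sorted on the log2 scale, and the widest gap between neighbours with at least 12 arrays on each side was cut at its middle. A line was high or low when both of its arrays lay on that side. Of 36 lines, 18 were high and 9 were low, and the other 9 had 1 array on each side of the cut and are called split lines.

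All groups were bread wheat, Triticum aestivum, from the mapping population RL4452 × AC Domain, and carried no treatment. The high lines were A35, A81, A88, B11, B65, C10, C22, C25, D15, D39, F38b, F44, F48, F82, G30, H23, H8 and J15. The low lines were A10, A77, B33, B68, C31, DH95, F29, H10 and H9, and the split lines A40, A91, DH91, E5, F36, F38a, G13, G32 and H5. Plants were grown in field rows, and whole developing seeds were taken 5 days after anthesis, so each array reads the pooled RNA of many seeds and of all their tissues. Fewer cells of a type and less RNA per cell cannot be told apart in such samples. The parents were not among the arrays, so which parent a high or a low level came from is not known here.

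Lines of a mapping population carry different mixtures of their parents' chromosome segments. A transcript whose abundance is set mainly by a single segregating locus shows separate classes of lines, and such a difference is called an expression level polymorphism. The variant can lie in or beside the gene itself, when it is said to act in cis, or elsewhere in the genome, when it acts in trans. Genes close together on a chromosome are inherited together, so the lines of a class share the alleles of neighbouring genes as well. On a short-oligonucleotide array a sequence difference under the probes, or a deleted copy of a gene, can also give separate classes. Bread wheat carries related gene copies on its A, B and D subgenomes, and a probe set may read more than 1 of them. How far any of these applied to a probe set below was not tested.

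Both arrays of a line should share that line's class, and in the split lines they did not. Over the 10 percent most variable probe sets, neither array was most correlated with its partner in 22 of the 36 lines, of which 11 were high, 3 low and 8 split. Both arrays were nearest to each other in 8 lines. Among the split lines, replicate 1 of G32 and replicate 3 of H5 were each nearest to the other, and replicate 3 of G32 was nearest to replicate 1 of H5. Of the 18 arrays of split lines, 10 were nearest to an array on their own side of the cut. Whether labels of arrays were exchanged was not tested, and the main count is also given below without the 22 lines. The median log2 intensity per array lay between 5.32 and 5.45. The log2 ratio of 3 prime to 5 prime probe sets of 6 control genes was 0.83 ± 0.21 in high lines and 0.79 ± 0.25 in low lines (SD, n = 18 and 9). For actin and GAPDH alone, the measure first planned, it was -1.58 ± 0.15 in high lines and -1.58 ± 0.13 in low lines. On the arrays of split lines that ratio was -1.72 ± 0.18 on the high side and -1.67 ± 0.23 on the low side.

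The two-level probe set had log2 intensities of 8.87, 10.68 and 10.99 (lowest, median and highest) on the 36 arrays of high lines, against 3.96, 4.36 and 4.78 on the 18 arrays of low lines. These values chose the lines and are a description only. The means of the lines were 10.52 ± 0.41 in high lines and 4.38 ± 0.14 in low lines (SD, n = 18 and 9). The high mean stood above 95.0% of the probe sets tested and the low mean above 31.1%, so the low class lay near the bottom of the scale. In the split lines the array on the high side had 7.08, 10.49 and 10.99, against 4.04, 4.30 and 4.81 for its partner (lowest, median and highest, n = 9 each). The array just above the cut was replicate 3 of G13 at 7.08, and the array just below it was replicate 3 of F36 at 4.81, which leaves a gap of 2.26. Above G13 came replicate 3 of A40 at 8.79, both arrays of D15 at 8.87 and 9.46, and replicate 1 of J15 at 9.22. It is the only probe set of its cluster on the array.

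**Figure D1:**
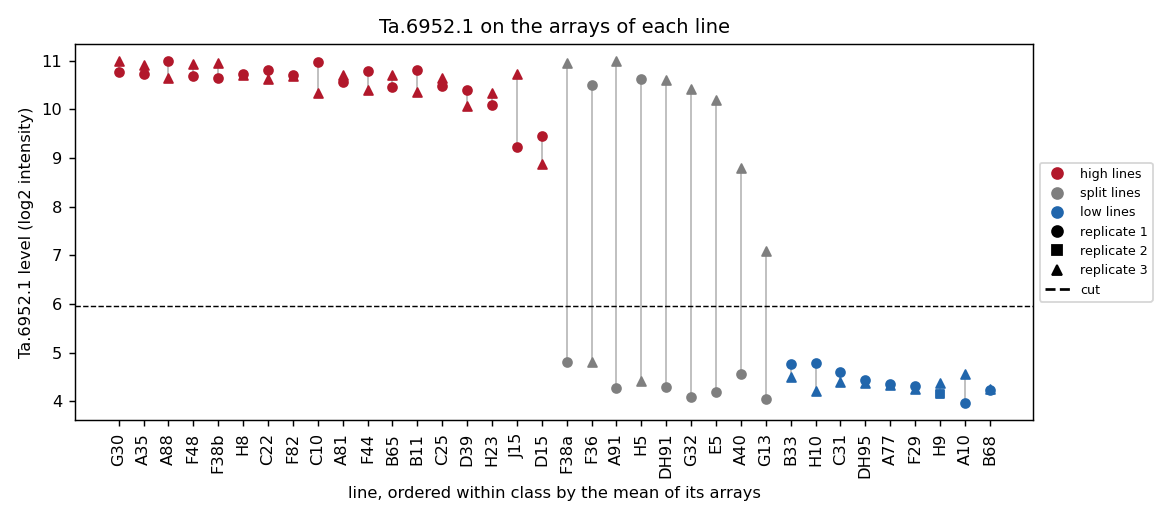
Log2 intensity of the two-level probe set on each array (points, shaped by replicate number), by line, with high lines at the left, split lines in the middle and low lines at the right. The dashed line is the cut, and vertical lines join the arrays of a line. All arrays of high lines were at 8.87 or more and all arrays of low lines at 4.78 or less, while each split line had an array on either side.

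Few other transcripts followed these classes. Of 61178 other probe sets, 40 differed between high and low lines (0.0654% of those tested, limma on line means, Benjamini-Hochberg adjusted p under 0.05). In the high lines 22 of them were higher (0.036%) and 18 were lower (0.0294%). Of the 40, 18 differed by at least 1 log2 unit and 8 by under 0.5, with a median absolute difference of 0.92 and a largest of 4.10. Over all probe sets tested the median difference was 0.01 and the median absolute difference 0.04. At an unadjusted p under 0.05, 2378 probe sets differed (3.89%). None of the 40 carries a gene symbol in the supplied annotation, so they are given by their probe set names and no function can be attached to them.

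Ta.7254.1.S1_at followed the two-level probe set most closely. It had log2 intensities of 7.47, 9.01 and 9.63 on the arrays of high lines, against 5.30, 5.91 and 6.36 on the arrays of low lines (lowest, median and highest, n = 36 and 18). The classes did not overlap on any array. Line means averaged 8.90 ± 0.37 in high lines and 5.83 ± 0.30 in low lines (SD, n = 18 and 9), a difference of 3.07 (SE 0.14), or 8.37-fold (limma adjusted p = 1.67e-14). Leaving out each line in turn moved that difference only between 3.02 and 3.13. On the 9 hybridisation days that held arrays of both classes, the difference lay between 2.67 and 3.50.

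TaAffx.36877.1.S1_at was the other probe set whose arrays did not overlap. The 2 make up 0.00327% of those tested. Its arrays were at 5.67, 7.30 and 7.88 in high lines and at 4.61, 5.09 and 5.53 in low lines (lowest, median and highest, n = 36 and 18). The lowest values of the high class were those of D15, at 5.93 and 5.67, close to the top of the low class. Line means were 7.13 ± 0.45 in high lines and 5.11 ± 0.21 in low lines (SD), a difference of 2.02 (SE 0.15, limma adjusted p = 4.00e-09).

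For 6 of the 40 (0.00981% of those tested) the line means did not overlap, although single arrays could. Besides Ta.7254.1.S1_at and TaAffx.36877.1.S1_at these were Ta.9429.1.S1_s_at, TaAffx.20475.1.S1_at, Ta.4560.1.S1_at and TaAffx.65456.1.A1_at. Ta.9429.1.S1_s_at had line means of 7.49 ± 0.35 in high lines and 5.90 ± 0.25 in low lines (SD, n = 18 and 9), a rise of 1.59 (SE 0.13, limma adjusted p = 8.59e-09). The next 2, given here because they are in this count and not for the size of their change, differed little. TaAffx.20475.1.S1_at was higher by 0.68 (SE 0.07) and Ta.4560.1.S1_at by 0.62 (SE 0.07). TaAffx.65456.1.A1_at was lower, at 4.68 ± 0.18 in high lines and 5.37 ± 0.21 in low lines.

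Apart from the 2 probe sets whose arrays did not overlap, at least 1 line went against each rise of over 2 log2 units. TaAffx.92234.1.A1_at, with the largest rise, was at 5.53, 9.24 and 10.09 on arrays of high lines and at 4.29, 5.19 and 9.72 on arrays of low lines (lowest, median and highest). The classes thus overlapped over nearly their whole range, yet the medians were about 4 log2 units apart. Its line means averaged 9.02 ± 0.94 in high lines and 5.84 ± 1.53 in low lines, a difference of 3.17 (SE 0.45, limma adjusted p = 0.000457). Ta.4978.2.A1_a_at rose by 2.08 (SE 0.33), with 7.27 ± 0.69 in high lines and 5.19 ± 1.10 in low lines. Ta.28805.1.S1_at rose by 2.39 (SE 0.31), with 9.29 ± 0.65 in high lines and 6.91 ± 1.06 in low lines. Both probe sets of cluster Ta.19612 rose by 2.05, with Ta.19612.1.S1_at at 8.65 ± 0.90 in high lines and 6.60 ± 0.88 in low lines.

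Other rises were of about 1 log2 unit. TaAffx.54667.1.S1_s_at was higher by 1.26 (SE 0.18), Ta.4700.1.S1_at by 1.14 (SE 0.17), TaAffx.66205.2.S1_s_at by 1.04 (SE 0.18) and Ta.7149.1.A1_s_at by 0.98 (SE 0.17). Ta.4700.1.S1_at was bright in both classes, at 10.94 ± 0.35 in high lines and 9.80 ± 0.58 in low lines (SD). In 5 of the 22 probe sets that rose, the mean of the low lines was under 5 on the log2 scale, a level below which 43.8% of all probe sets lay.

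The largest change of all was a fall. Ta.4525.1.A1_at was at 3.72, 4.47 and 9.42 on arrays of high lines, against 4.39, 9.77 and 10.59 on arrays of low lines (lowest, median and highest, n = 36 and 18). Most high lines were thus near the bottom of the scale and most low lines bright. Line means averaged 5.26 ± 1.45 in high lines and 9.36 ± 1.26 in low lines, a difference of -4.10 (SE 0.54), or 17.1-fold lower in high lines. A second probe set of that cluster, Ta.4525.2.S1_at, fell by 1.74 (SE 0.26).

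TaAffx.12620.1.A1_at and Ta.5469.1.S1_at had the smallest p among the falls. TaAffx.12620.1.A1_at fell by 2.19 (SE 0.21), with line means of 4.28 ± 0.46 in high lines and 6.47 ± 0.68 in low lines. Ta.5469.1.S1_at fell by 1.25 (SE 0.12), with 4.06 ± 0.26 in high lines and 5.31 ± 0.39 in low lines. TaAffx.56180.1.S1_at fell by 2.58 (SE 0.38), Ta.9758.1.A1_at by 1.60 (SE 0.21) and Ta.20658.2.S1_x_at by 1.58 (SE 0.21). Ta.20658.2.S1_x_at differs from the others in being bright in both classes, at 10.26 ± 0.56 in high lines and 11.84 ± 0.52 in low lines. Ta.28570.1.A1_at was bright as well and fell by 0.75 (SE 0.09). TaAffx.23823.1.S1_at fell by 0.98 (SE 0.18), TaAffx.6325.1.S1_at by 0.83 (SE 0.14) and TaAffx.83910.1.S1_at by 0.81 (SE 0.15). In 8 of the 18 probe sets that fell, the mean of the high lines was under 5.

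The other 16 of the 40 are outside the 12 largest changes of their direction. Among the rises were Ta.28102.1.A1_at at 0.85, TaAffx.128418.15.S1_s_at at 0.72 and Ta.9039.2.S1_x_at at 0.66, with the 2 given above. TaAffx.128418.15.S1_s_at differed by 1.04 without replicate 1 and by 0.40 without replicate 3, and it no longer passed without replicate 3 or with hybridisation day in the fit (limma adjusted p = 1.00 and 0.232). Ta.28521.1.S1_at at 0.46, Ta.8560.1.A1_at at 0.38, Ta.10449.1.A1_at at 0.35, Ta.3480.1.S1_at at 0.31 and TaAffx.118503.1.A1_at at 0.25 were smaller. TaAffx.12417.1.A1_at fell by 0.64, Ta.3754.2.A1_at fell by 0.64, TaAffx.24652.1.S1_at fell by 0.61 and Ta.5469.1.S1_x_at fell by 0.47. Ta.7654.1.S1_at fell by 0.39 and Ta.3754.1.A1_a_at fell by 0.38. The standard errors of the 16 lay between 0.05 and 0.14 (limma adjusted p under 0.05). Most of the 16 no longer passed without replicate 1 or without replicate 3, as given below.

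**Figure D2:**
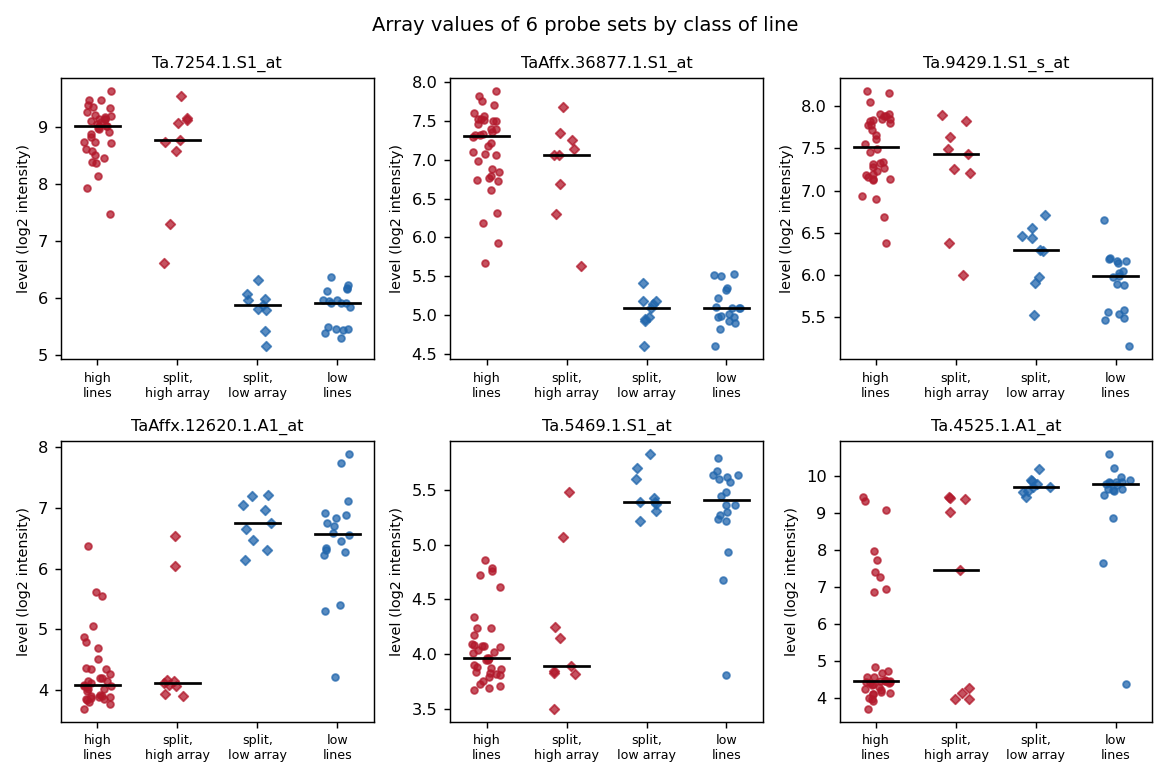
Log2 intensity on each array (points) of 6 probe sets, with arrays of high lines, high arrays of split lines, low arrays of split lines and arrays of low lines from left to right. Bars are medians. The classes do not overlap for Ta.7254.1.S1_at and TaAffx.36877.1.S1_at in high and low lines, and Ta.4525.1.A1_at has high-line arrays from 3.72 to 9.42.

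The 40 probe sets belong to 36 clusters, the groups of expressed sequences from which the array's probes were designed. More than 1 of the 40 came from each of 4 clusters, Ta.4525, Ta.19612, Ta.5469 and Ta.3754, and within each the direction was the same. In 13 clusters there were also 17 tested probe sets that did not pass. The probe sets named TaAffx.128418 were left out of this count because 113 share that name. Of the 17, 6 had an unadjusted p under 0.05, of which 5 went in the direction of the probe set that passed. The sixth, Ta.28521.2.S1_at, differed by -0.44, where Ta.28521.1.S1_at differed by 0.46. Where Ta.5469.1.S1_at fell by 1.25, Ta.5469.2.S1_at was at 10.30 ± 0.33 in high lines and 10.27 ± 0.41 in low lines, and Ta.5469.3.A1_at at 9.46 ± 0.26 and 9.43 ± 0.37 in the same order. Where Ta.20658.2.S1_x_at fell by 1.58, Ta.20658.1.S1_a_at was at 12.86 ± 0.14 in high lines and 12.82 ± 0.16 in low lines. Ta.9429.1.S1_at was at 7.39 ± 0.26 in high lines and 7.18 ± 0.32 in low lines, against the rise of 1.59 in Ta.9429.1.S1_s_at. Probe sets of a cluster can read different gene copies or different parts of a transcript. Names ending in _s_at mark probe sets whose probes match transcripts of several sequences. They made up 12.5% of the 40 and 4.31% of the probe sets tested.

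Of the 40, Ta.7254.1.S1_at had the most arrays on the side of the two-level probe set. With the midpoint between the class medians as its own divide, 70 of 72 arrays were on the same side as for the two-level probe set. Over the 40 probe sets that number ran from 52 to 70, with a median of 61.5. In 31 of the 40, at least 1 high or low line had both arrays on the other side. Such lines were counted only where both arrays lay there, so the agreement of their arrays follows from the count. A line on the other side of the divide need not have reached the level of the other class. For TaAffx.36877.1.S1_at, D15 was counted there at 5.93 and 5.67, although all low-line arrays were at 5.53 or less. For the two-level probe set itself, D15 was at 9.46 and 8.87, above the divide of 7.52 on the log2 scale. In linear intensity these arrays lay 42.1% and 27.6% of the way from the low to the high median.

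Such lines recurred across groups of probe sets. High line A35 and low line B68 were both on the other side for TaAffx.92234.1.A1_at, Ta.4978.2.A1_a_at, TaAffx.12417.1.A1_at and TaAffx.83910.1.S1_at. TaAffx.92234.1.A1_at was at 5.53 and 5.67 on the arrays of A35, and at 9.72 and 9.51 on those of B68, the reverse of their classes. High line A81 and low line C31 were on the other side for Ta.28805.1.S1_at and for Ta.19612.1.S1_at and Ta.19612.1.S1_x_at. Ta.28805.1.S1_at was at 7.10 and 7.21 in A81, and at 9.39 and 9.96 in C31. High line D15 and low line B68 were on the other side for Ta.9758.1.A1_at, Ta.4525.2.S1_at and TaAffx.23823.1.S1_at. Low lines A10 and H10 were on the other side for Ta.4700.1.S1_at.

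D15 and B68 had the most such probe sets. D15 had both arrays on the other side for 16 of the 40 and 1 array for 13, and B68 had both for 10 and 1 for 11. Ta.4525.1.A1_at was at 9.09 and 9.42 in D15, as in low lines. Ta.7254.1.S1_at was at 8.15 and 7.47 there, above its divide of 7.46, replicate 3 only just. A35 had both arrays on the other side for 6 probe sets, A81 for 5 and C31 for 4. J15 had both for 1 but a single array for 27. Its replicate 1 had Ta.4525.1.A1_at at 9.31 and its replicate 3 at 4.43.

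**Figure D3:**
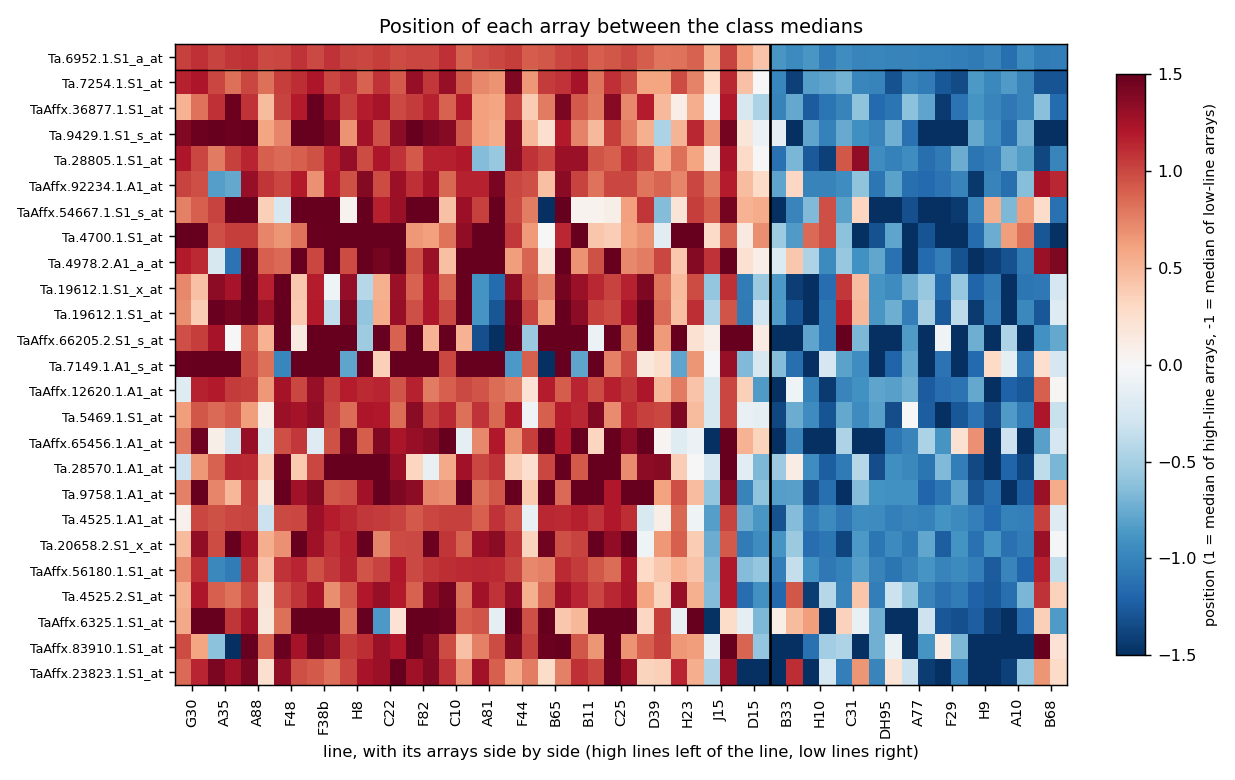
Position of each array of the high lines (left of the vertical line) and low lines (right) for the two-level probe set and the 24 named probe sets, where 1 is the median of high-line arrays and -1 that of low-line arrays, with colours ending at 1.5 and -1.5. Rows below the top row are ordered with rises above falls, and blue cells at the left or red cells at the right mark arrays on the other side, as in A35 and B68 for TaAffx.92234.1.A1_at or A81 and C31 for Ta.28805.1.S1_at.

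The split lines gave other samples in which to measure the 40 probe sets, since their arrays were left out of the comparison of lines. In each split line the low array was subtracted from the high array. All 40 probe sets had the same direction as between lines, where 44.8% of all probe sets tested did. In 34 of the 40 the unadjusted p was under 0.05 in that direction, against 3.05% of all probe sets. In 19 of the 40 all 9 split lines moved the same way, against 0.51% of all tested, in either direction. Replicate 3 was the high array in 7 of the 9 lines. With which replicate was high as a covariate, 32 of the 40 had an unadjusted p under 0.05 in the same direction, and with limma's trend and robust options 14 did. With hybridisation day as a block, which left 2 residual degrees of freedom, it was 34, and all 40 kept the direction.

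After adjustment over all 61178 probe sets, 1 passed within split lines (0.00163%), and 4465 had an unadjusted p under 0.05 (7.3%). The 1 was TaAffx.36877.1.S1_at. Its high arrays were at 5.64, 7.06 and 7.68 and its low arrays at 4.60, 5.10 and 5.42 (lowest, median and highest, n = 9 each), with no overlap. The high array was higher in 9 of 9 lines, by 1.85 (SE 0.12, limma adjusted p = 0.000627). With the day as a block its difference was 2.32 (SE 0.30, limma adjusted p = 0.169), and 16 probe sets passed, 3 of them among the 40. Ta.7254.1.S1_at was at 6.61, 8.78 and 9.55 on high arrays and at 5.15, 5.87 and 6.32 on low arrays, again with no overlap. It was higher in 9 of 9 lines by 2.73 (SE 0.31, limma adjusted p = 0.0563). Its smallest differences were in G13, at 6.61 on the high array and 5.81 on the low one, and in A40, at 7.30 and 5.97 in the same order. These are the lines whose level of the two-level probe set on the high array was lowest. Without G13 and A40, a choice made after seeing the data, 12 probe sets passed, of which 10 are among the 40. Without G13 alone 8 passed, and without A40 alone 4.

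Differences within split lines were smaller than those between lines in 29 of the 40 probe sets. They came to between 10.2% and 137% of the difference between lines, with a median of 86.9%. The 40 were chosen for their difference between lines, not within split lines. The split lines also include G13 and A40, whose high arrays were at only 7.08 and 8.79 for the two-level probe set. Why the differences were smaller was not tested. TaAffx.92234.1.A1_at differed by 2.95 (SE 0.40) within split lines and by 3.17 between lines, and TaAffx.12620.1.A1_at by -2.19 (SE 0.25) within split lines and by -2.19 between lines. Ta.9429.1.S1_s_at differed by 0.99 (SE 0.21) within split lines and by 1.59 between lines. Ta.4525.1.A1_at differed by -2.96 (SE 0.74) within split lines and by -4.10 between lines, lower on the high array in 9 of 9 lines. The 6 probe sets without an unadjusted p under 0.05 all belonged to those that were higher in high lines. TaAffx.54667.1.S1_s_at was higher on the high array in 5 of 9 lines, by 0.47 (SE 0.39), Ta.4700.1.S1_at in 5 of 9 by 0.43 (SE 0.25), and Ta.7149.1.A1_s_at in 5 of 9 by 0.52 (SE 0.28). The other 3 were Ta.10449.1.A1_at, TaAffx.128418.15.S1_s_at and Ta.8560.1.A1_at.

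**Figure D4:**
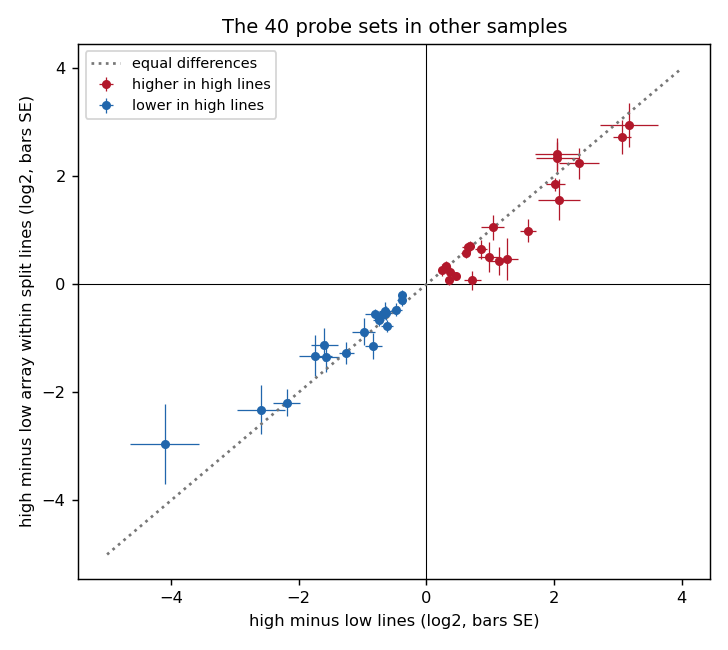
Difference in log2 intensity of each of the 40 probe sets between high and low lines (x axis) and between the high and the low array within split lines (y axis), with standard errors as bars. All points lie in the quadrants where both differences have the same sign, and Ta.4525.1.A1_at is at -4.10 and -2.96.

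Some arrays on the high side of the two-level probe set were not fully high. To set probe sets side by side, each array was placed on the linear intensity scale between the median of low-line arrays, 0%, and the median of high-line arrays, 100%. Beside the two-level probe set stand the 10 probe sets with the smallest p between lines. Replicate 3 of G13 was at 7.06% for the two-level probe set, and the median of the 10 was 6.81%, from -27.1% to 37.4%. Replicate 3 of A40 was at 26.0% for the two-level probe set and at a median of 21.5% for the 10. Replicate 1 of J15 was at 35.5%, with a median of 45.3%.

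The arrays of D15 were at 27.6% (replicate 3) and 42.1% (replicate 1) for the two-level probe set, with medians of 17.9% and 51.8% for the 10. D39 and H23, with single arrays at 64.5% and 66.0%, had medians of 58.4% and 69.5%. On these arrays the 10 probe sets thus sat, at the median, between the classes as the two-level probe set did, although single probe sets scattered widely. Arrays of D15, J15, D39 and H23 took part in choosing the 10, so for them this is a description only.

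**Figure D5:**
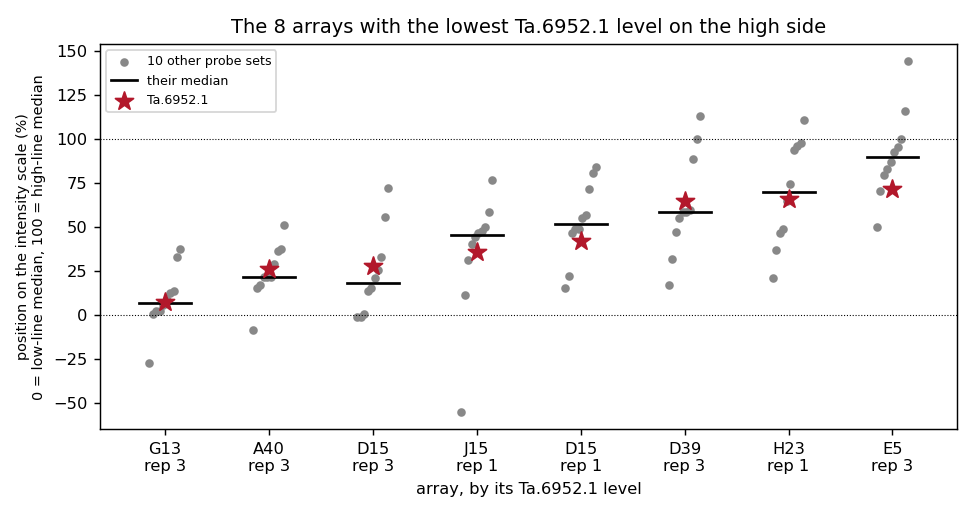
Position on the linear intensity scale of the 8 arrays with the lowest level of the two-level probe set on the high side, for the two-level probe set (star) and for the 10 other probe sets with the smallest p between lines (points, median as a bar). The stars run from 7.06% in replicate 3 of G13 to 71.3% in replicate 3 of E5, and the medians of the other probe sets from 6.81% to 89.4%.

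No probe set with a gene symbol passed between the classes. This count and those of the lists below say little, since only 0.0654% of all probe sets passed. Of the 1273 tested probe sets with a gene symbol, which stand for 771 genes, 0 passed in limma, with a smallest adjusted p of 0.874, and 51 had an unadjusted p under 0.05 (4.01%, against 3.89% of all probe sets). Lists of genes for starch and fructan metabolism (4 probe sets), photosynthesis (36), chaperones (2), translation (4), redox enzymes (8), defence (3), dormancy and abscisic acid response (7), growth (3) and chromatin (2) had 0 members that passed in limma, and 2 members with an unadjusted p under 0.05. The median difference of a list lay between 0.01 and 0.20, apart from the 2 chaperone probe sets at -1.06, beside 0.01 over all probe sets tested.

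The 2 members were a small heat shock protein gene and a chromatin gene. LOC543277 (hsp16.9A), whose product protects other proteins under heat, was at 6.12 ± 1.43 in high lines and 7.96 ± 3.32 in low lines, a difference of -1.84 (SE 0.86) with an SD larger than it in low lines. Within split lines its difference was 0.91, the opposite direction. LOC543333 (Hmgb3), which encodes an HMGB-type DNA-bending protein, was at 12.47 ± 0.20 in high lines and 12.26 ± 0.24 in low lines, and its difference within split lines was -0.21.

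Markers of seed tissues had 0 called members as well, a count that says little beside the 0.0654% of all probe sets that passed. Markers of green pericarp and seed coat (6 probe sets), which include photosynthesis genes, averaged 10.22 in high lines and 10.17 in low lines. Markers of starchy endosperm (5) averaged 7.02 in high lines and 6.96 in low lines, and those of embryo and aleurone (9), of which 6 had a mean under 5, 4.60 in high lines and 4.58 in low lines. LOC543395 (GBSS-I, Wx-A1), which makes amylose in starch granules, was at 9.09 ± 1.24 in high lines and 8.87 ± 1.19 in low lines. A probe set of LOC780602, Ta.28514.1.A1_at, was at 8.27 ± 1.30 in high lines and 7.60 ± 1.70 in low lines, and LOC780595 (TaGlu1a), a beta-glucosidase gene, at 8.67 ± 1.30 and 8.90 ± 1.14 in the same order. None of these differences passed in limma.

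Hybridisation day and array labels bear on all of these counts. Arrays were hybridised on 12 days, of which 9 held arrays of both classes. On all 9 days, 22 of the 40 probe sets had the direction of the whole comparison, and the lowest number was 7 of 9. The same arrays chose the 40, so these counts are a description and no check on the day. With the day in a fit of single arrays, 56 probe sets passed, 39 of them among the 40. Without the 22 lines in which neither array was nearest to its partner, 7 high and 6 low lines remained. In some of these only 1 array was nearest to its partner. There 28 probe sets passed, 13 higher and 15 lower, of which 24 are among the 40. Ta.19612.1.S1_at, Ta.4700.1.S1_at, TaAffx.54667.1.S1_s_at, TaAffx.66205.2.S1_s_at, TaAffx.56180.1.S1_at and TaAffx.83910.1.S1_at no longer passed there, nor did Ta.19612.1.S1_x_at and 9 of the smaller changes. In 12 of these 16 the difference was at least as large as in all lines, and over the 16 it was between 76.3% and 133% of it. TaAffx.56180.1.S1_at, for example, differed by -3.02 there and Ta.19612.1.S1_at by 2.38. With replicate 1 arrays alone in all lines but H9, which has replicate 2, the count was 26, all among the 40. Among the 12 largest changes of each direction, TaAffx.66205.2.S1_s_at, Ta.7149.1.A1_s_at, TaAffx.6325.1.S1_at and TaAffx.65456.1.A1_at no longer passed without replicate 3. Of the smaller changes, Ta.28521.1.S1_at, Ta.3754.1.A1_a_at, Ta.3754.2.A1_at, Ta.5469.1.S1_x_at, TaAffx.118503.1.A1_at and TaAffx.128418.15.S1_s_at were lost there as well. Of the largest changes, Ta.19612.1.S1_at, TaAffx.54667.1.S1_s_at, Ta.4525.2.S1_at, TaAffx.23823.1.S1_at and TaAffx.83910.1.S1_at no longer passed without replicate 1, nor did the smaller TaAffx.12417.1.A1_at. Ta.10449.1.A1_at, Ta.3480.1.S1_at, Ta.7654.1.S1_at and Ta.8560.1.A1_at passed neither without replicate 1 nor without replicate 3. TaAffx.23823.1.S1_at also lost its call without any 1 of the low lines A10, A77, F29, H10 or H9 (limma adjusted p between 0.0520 and 0.0753), and TaAffx.83910.1.S1_at without C31 (limma adjusted p = 0.0527). The direction of all these probe sets held in each of these fits.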

How the data were processed

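Affymetrix wheat array intensities were deposited as 1 table of probe set values, on a linear intensity scale, made with RMA per the submitters' processing notes, which give no version. Log2 was taken with a pseudocount of 0 and no filter on low values. The number of arrays limits the precision. The 111 control probe sets and the two-level probe set itself, Ta.6952.1.S1_a_at, were left out of the tests. The arrays of each line, 2 per line, were averaged, and high minus low lines was fitted in limma 3.58.1 under R 4.3.3 with Benjamini-Hochberg adjustment. Within split lines, limma was fitted to the 9 differences between the high and the low array. The labels call the arrays biological replicates, and sequences of the probes and gene models were not used here. The scripts were tested on simulated data. Members, lists and tests were chosen with earlier results of these data known. Named are the 12 largest rises, the 12 largest falls, probe sets without overlap, and list members with the smallest p or largest difference. Others are named to account for a count. Alternatives covered scaling, filters, covariates, blocks and left-out lines.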

Additional observations from a re-analysis of the deposited data

Results flagged for a closer look

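The named probe sets and the two-level probe set were examined for single lines that stood apart, in line means among the 9 low lines and in the difference of high minus low array among the 9 split lines. Of 50 such groups of 9, 10 had a line whose distance to its nearest neighbour was large for the group's range. For a single group chance gives about 1 in 20. The groups share lines and correlated probe sets, so the count of 10 cannot be set against that rate. All 10 were in low lines, either B68 or C31. Both are among the 22 lines in which neither array was nearest to its partner, and some of these means average unlike arrays. B68 stood apart in 7 probe sets. It was at 9.62 for TaAffx.92234.1.A1_at, above 4.73 to 6.72 in the other low lines. It was at 6.01 for Ta.4525.1.A1_at, below 9.57 to 10.02 in the others, at 4.82 for TaAffx.56180.1.S1_at, below 6.68 to 7.43, and at 4.75 for TaAffx.12620.1.A1_at, below 6.32 to 7.08. Replicates 1 and 3 of B68 were at 4.39 and 7.64 for Ta.4525.1.A1_at, at 3.51 and 6.12 for TaAffx.56180.1.S1_at and at 9.88 and 11.11 for Ta.20658.2.S1_x_at, but at 9.72 and 9.51 for TaAffx.92234.1.A1_at. B68 was also lowest for Ta.9758.1.A1_at at 5.34, for Ta.20658.2.S1_x_at at 10.50 and for Ta.5469.1.S1_at at 4.37. C31 stood apart in 3 probe sets, with 9.68 for Ta.28805.1.S1_at, 8.44 for Ta.19612.1.S1_x_at and 8.73 for Ta.19612.1.S1_at, each above all other low lines. In all of these the line lay toward the level of the high lines.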

How the results depend on the processing

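All 40 probe sets kept their direction between lines in every alternative in which they were tested, and 24 of 1004 values of named probe sets no longer passed. The count was 26 to 33 when replicate 3 or replicate 1 was left out, with 14 to 18 higher and 12 to 15 lower, and 34 to 51 when each line was left out, highest without B68. Without the lines with unmatched arrays 13 were higher. With the replicate number as a block 50 passed (25 higher and 25 lower, 39 of them among the 40). Same-numbered arrays of different lines had a median correlation of -0.01 in their deviations from the class means. It was -0.05 for differently numbered arrays of different lines and 0.22 for the arrays of a line. Whether the replicate numbers mark a batch was not tested. Within split lines the count was 5 with quantile normalization, 9 among probe sets with a mean log2 of at least 5, and 0 with limma's trend and robust options (2255 at an unadjusted p under 0.05). It was 16 with hybridisation day as a block (3 of them among the 40), a fit with 6 terms for 8 days and 2 residual degrees of freedom. There it was 2 with the replicate block and 12 without G13 and A40, both chosen after seeing the data, and 1 to 8 when each line was left out (8 without G13, 4 without A40). The cause of these changes was not tested.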

Other observations

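Part of the variation within classes was shared between probe sets, as a description of line means from the same arrays over the 27 high and low lines. After subtracting class means, Pearson's r was 0.99 for Ta.19612.1.S1_x_at with Ta.19612.1.S1_at, 0.95 for Ta.4525.1.A1_at with Ta.20658.2.S1_x_at, 0.94 for TaAffx.92234.1.A1_at with Ta.4978.2.A1_a_at and 0.92 for Ta.4525.2.S1_at with TaAffx.23823.1.S1_at. The first pair shares a sequence number, 19612.1, in its names, so its r need not be between different transcripts. The r values rest in part on the lines on the other side named above. Without A35, A81, B68, C31 and D15, a choice made after seeing the data, r over the other 22 lines was 0.98, 0.87, 0.81 and 0.79 in the same order. For Ta.28805.1.S1_at with Ta.9039.2.S1_x_at r was 0.88 over the 27 lines and 0.14 without those 5, and for TaAffx.92234.1.A1_at with TaAffx.56180.1.S1_at it was -0.86 and -0.45 in the same order.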
